A study of Trachinotus blochii with 22 samples.

Results

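Small RNA was sequenced from the livers of golden pompano (Trachinotus blochii), a farmed marine fish, after normoxia, hypoxia, or a rapid or gradual return of oxygen. The comparison described here sets rapid reoxygenation at 12 h (2 libraries, 1 and 2) against normoxia at 12 h (3 libraries, 1 to 3). It covers every miRNA entry that reached 1 CPM in 2 or more of these 5 libraries, which are 535 of the 1400 distinct entries measured. CPM are the reads of an entry scaled to the same total in each library. Of the 535, 512 carry names of known miRNAs of other species and 23 are predicted by the authors, and together they have 248 family names. 437 of them reached 1 CPM in all 5 libraries and 34 in exactly 2, while 39 further entries reached it in exactly 1 and were left out. The labels give no hour from which times are counted, no sex, age or strain, and do not say whether the libraries are separate fish. The p-values therefore reflect only a spread among libraries, which may be technical. That spread was estimated over all 22 libraries of the study in 8 groups, not from these 5 alone. The columns of the deposited table carry letters that the labels do not explain, and they were joined to the groups by the times in their names and by how many libraries each group has, on which every value below rests.

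A miRNA is a short RNA, cut from a hairpin precursor, that guides Argonaute proteins to partly matching messenger RNAs and so lowers their stability or translation. The strand kept from the left arm of the hairpin is the 5p form and that from the right arm the 3p form. Liver RNA carries the miRNAs of hepatocytes, led by miR-122, with those of blood cells, vessel walls, immune cells and, in many bony fishes, of pancreatic tissue that lies within or along the liver. In such bulk RNA, fewer cells of a type and less RNA per cell cannot be told apart.

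The libraries held 20.4 to 31.9 M assigned reads in the 2 groups, and 17.5 to 33.8 M over the 22 libraries of the study, so that 1 read was worth 0.0296 to 0.0572 CPM. These totals follow from the value of 1 read, and a read shared by several entries may be counted more than once in them. miR-122 led in all 5 libraries. The 2 rapid libraries differed from each other by 1.08 log2 units (root mean square over the 535 entries), and pairs of normoxia 12 h libraries by 0.702 to 0.745. 128 entries differed by more than 1 log2 unit between the rapid libraries, of which 112 were higher in library 2. In the authors' deposited table, the mean for rapid reoxygenation 12 h includes 1 further library that is not analysed here. Changes below are differences of group means of log2(CPM + 1), rapid minus normoxia, with their standard error (SE), on a scale that understates the change of low entries. The p-values are from limma, adjusted by Benjamini and Hochberg's method over all 535 entries, with a threshold of 0.05.

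No entry passed the threshold in limma, which is 0% of the 535 tested. 26 entries, or 4.86%, had an unadjusted p under 0.05, 12 (2.24%) higher and 14 (2.62%) lower after rapid reoxygenation. Judged by the most abundant entry of each, 15 family names had such a p, with close names such as miR-144 and miR-144b counted separately. edgeR on the recovered reads called 0 entries, and DESeq2 called 8, or 1.5%, of which 1 (0.187%) was higher and 7 (1.31%) were lower. Both rapid libraries lay above the normoxia range for 46 entries and both below it for 48, which together are 94 entries, or 17.6%, whose groups do not overlap. Over all 535 entries the median change was −0.023 log2 units, from −0.604 at the 5th percentile to 0.83 at the 95th, with a median SE of 0.37, and 402 changes were smaller than their SE. The 3 lowest changes were those of dre-miR-2188-5p, cpi-miR-451-5p and chi-miR-451-5p, listed here with miR-144 as miRNAs of red blood cells.

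**Figure D1:**
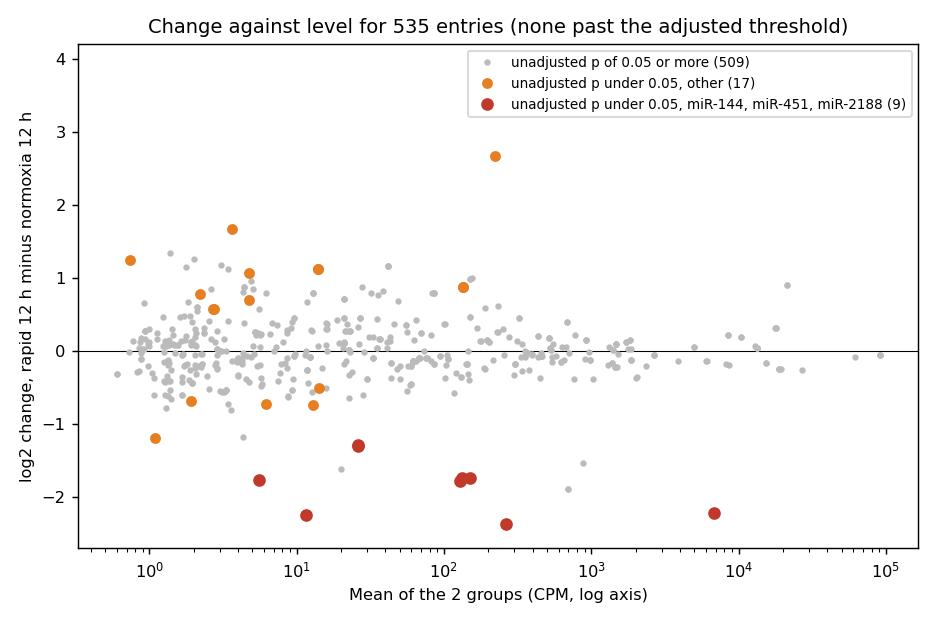
Change in log2(CPM + 1), rapid 12 h minus normoxia 12 h, against the mean level of the 2 groups in CPM on a log axis, one point per entry for 535 entries. Red points are the 9 entries of miR-144, miR-451 and miR-2188, which lie between −2.37 and −1.29; orange points are the other 17 entries with an unadjusted p under 0.05, and no entry passed the adjusted threshold.

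miR-144, miR-451 and miR-2188 were lower in both rapid libraries than in any normoxia 12 h library, by values that did not pass the adjusted threshold. miR-144 and miR-451 come from one primary transcript that is made in developing red blood cells, and miR-451 is needed for their maturation in mouse and zebrafish. miR-451 is cut by Argonaute 2 itself rather than by Dicer. miR-2188, a miRNA of fishes, frogs and birds, was placed in the same list.

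miR-144 (ola-miR-144) stood at 53.8 and 82.9 CPM in the rapid libraries and at 289, 254 and 154 CPM in the normoxia libraries. The group means were 68.3 ± 20.6 CPM (SD, n = 2) and 232 ± 70.5 CPM (SD, n = 3), which is 3.401-fold lower, and the groups do not overlap. The change was −1.73 ± 0.44 log2 units (SE; limma adjusted p = 0.0804). The 3p form (mmu-miR-144-3p) was less abundant, at 15.9 and 12.6 CPM against 25.5, 51.8 and 35.4 CPM. Its change was −1.29 ± 0.49 (adjusted p = 0.709), again without overlap of the groups. oni-miR-144b and pol-miR-144-5p are further entries of the family at similar levels, with changes of −1.74 and −1.78, and such entries can share reads.

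miR-451 (chi-miR-451-5p), the most abundant miRNA of the 9 erythroid entries, stood at 1937 and 2789 CPM in the rapid libraries and 13268, 13717 and 7021 CPM in the normoxia libraries. The means were 2363 ± 603 CPM (SD, n = 2) and 11335 ± 3743 CPM (SD, n = 3), a 4.797-fold difference, with a change of −2.22 ± 0.57 log2 units (adjusted p = 0.0804). Normoxia library 3 was the lowest of its group and still held more than the higher rapid library. A minor entry of miR-451 (cpi-miR-451-5p), chosen for mention after its values were seen, was at 3.02 and 3.52 CPM against 16.9, 26.7 and 15.7 CPM, with an adjusted p of 0.0722.

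miR-2188 (dre-miR-2188-5p) had the lowest change of all 535 entries. It was at 65.4 and 101.3 CPM in the rapid libraries and at 569, 485 and 277 CPM in the normoxia libraries. The means were 83.3 ± 25.4 CPM (SD, n = 2) and 444 ± 150.01 CPM (SD, n = 3), 5.33-fold apart, and the change was −2.37 ± 0.55 log2 units (adjusted p = 0.0722). All 9 entries of these miRNAs had both rapid libraries below the normoxia range, where 8.97% of all entries did, and all 9 had an unadjusted p under 0.05, where 2.62% did so in that direction. The 9 are entries of miR-144 (with miR-144b, which has its own family name), miR-451 and miR-2188. They can share reads or a precursor, and are not independent. All 9 were lower in each of the 17 alternative settings. Where groups do not overlap, another pseudocount or filter, or leaving out a library, cannot turn the direction. Those settings were therefore no test of it.

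The calls turned on which libraries and which tool were used. With DESeq2 the adjusted p was 0.001498 for miR-144, 0.001498 for miR-451 and 0.000376 for miR-2188. Without normoxia library 3, which held the least of all 3 in its group, each had an adjusted p of 0.0468 in limma. With the libraries of the 2 groups compared alone, the limma adjusted p was 0.312 for miR-144, 0.174 for miR-451 and 0.174 for miR-2188. Over all 17 alternatives the adjusted p ranged from 0.001498 to 0.384 for miR-144, from 0.001498 to 0.384 for miR-451 and from 0.000376 to 0.384 for miR-2188. The 3p form, mmu-miR-144-3p, passed in none of the 17, with an adjusted p of 0.332 with DESeq2 and 0.759 without normoxia library 3.

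Across the 8 groups, normoxia 12 h was the highest for ola-miR-144, chi-miR-451-5p and dre-miR-2188-5p, while gradual 3 h was higher for mmu-miR-144-3p, at 51.1 against 37.6 CPM, and for cpi-miR-451-5p, at 20.99 against 19.8 CPM, with overlapping libraries. miR-144 (ola-miR-144) averaged 232 ± 70.5 CPM there and 185 ± 53.02 CPM in gradual reoxygenation 3 h, the next in order, whose libraries overlap those of normoxia 12 h. The 5 groups in the middle were hypoxia 0 h at 86.5 CPM, rapid 3 h at 86.2 CPM, gradual 12 h at 74.5 CPM, rapid 12 h at 68.3 CPM and hypoxia 12 h at 43.6 CPM, each overlapping its neighbours in that order. Normoxia 0 h was the lowest, at 17.8 ± 5.58 CPM (SD, n = 2). The levels of rapid 12 h thus lay above those of one normoxia time and below those of the other.

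miR-451 (chi-miR-451-5p) had the same groups at both ends, with 11335 CPM in normoxia 12 h, 11208 CPM in gradual 3 h, whose libraries overlap, and 1550.0 CPM in normoxia 0 h, and rapid 12 h at 2363 CPM was the next above normoxia 0 h. For miR-2188 (dre-miR-2188-5p) rapid 12 h at 83.3 CPM and normoxia 0 h at 78.4 ± 60.3 CPM (SD, n = 2) were the lowest groups, and their libraries overlap. The summed level of the 3 erythroid families was 2056 to 2973 CPM in the rapid 12 h libraries, 7452 to 14456 CPM in normoxia 12 h and 903 to 4668 CPM in gradual 12 h. Whether the amount of blood in the pieces of liver moved with these values was not tested.

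**Figure D2:**
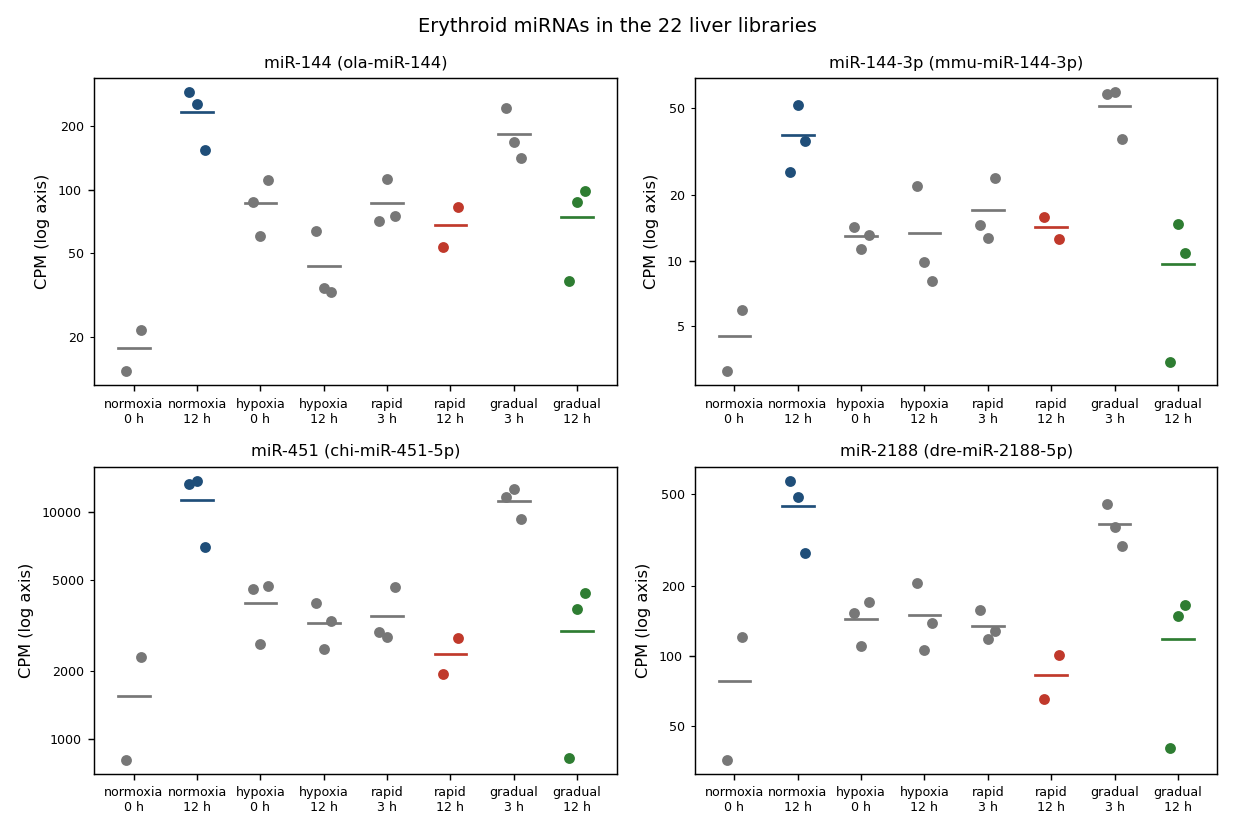
CPM on a log axis of ola-miR-144, mmu-miR-144-3p, chi-miR-451-5p and dre-miR-2188-5p in each of the 22 libraries (points) by group, with bars at the group means. Rapid 12 h is red, normoxia 12 h blue and gradual 12 h green; for miR-451 the rapid 12 h libraries sit at 1937 and 2789 CPM and the normoxia 12 h libraries at 13268, 13717 and 7021 CPM.

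Gradual reoxygenation 12 h and hypoxia 12 h, set against the same 3 normoxia libraries in the same fit, passed for 11 entries (2.06%) and 4 entries (0.748%). Since the controls are shared, the values stand side by side only. The change of miR-144 was −1.73 after rapid and −1.697 after gradual reoxygenation, and −2.404 in hypoxia. For miR-451 the values were −2.22, −2.18 and −1.76, and for miR-2188 −2.37, −2.07 and −1.54. Against normoxia 12 h, the limma adjusted p after gradual reoxygenation was 0.0335 for each of these miRNAs. In hypoxia it was 0.00184 for miR-144, 0.199 for miR-451 and 0.226 for miR-2188. Set directly against gradual 12 h, rapid 12 h differed by −0.037 ± 0.44 for miR-144, −0.039 ± 0.57 for miR-451 and −0.297 ± 0.55 for miR-2188, each smaller than its SE. The adjusted p of these direct differences was 0.992, 0.992 and 0.931, which does not show that the levels were equal.

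The miR-15/16 family, known in mammals for repressing cell cycle and survival genes such as cyclin D1 and BCL2, was lower in all 5 tested members of 11 listed. Of the 5, 4 had both rapid libraries below the normoxia range, where 8.97% of all entries did, 2 had an unadjusted p under 0.05, where 2.62% did so in that direction, and 0 passed. The median change of the list was −0.58, beside −0.023 over all entries, and all 5 stayed lower with TMM factors, quantile normalization, edgeR and DESeq2. Normoxia 12 h had the highest mean of the 8 groups for the summed level of the 5, with libraries at 241 to 265 CPM. The libraries of rapid 3 h, at 147 to 275 CPM, overlapped that range. Rapid 12 h, at 147 to 199 CPM, overlapped normoxia 0 h, at 164 to 209 CPM, and gradual 12 h, at 119 to 180 CPM.

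miR-16b (dre-miR-16b), the most abundant member, was at 79.9 and 108 CPM against 130.3, 139 and 149 CPM, a change of −0.58 ± 0.28 (adjusted p = 0.937). miR-15a (fru-miR-15a) was at 19.01 and 25.8 CPM against 32.8, 36.8 and 32.8 CPM, with −0.6005 ± 0.31. miR-15c (ssa-miR-15c-5p) stood at 11.95 and 10.96 CPM against 16.7, 15.5 and 18.01 CPM, with −0.51 ± 0.23 and an unadjusted p of 0.03803 in limma. In these 3 the groups do not overlap. miR-16 (hsa-miR-16-5p), at 34.6 and 52.9 CPM against 59.9, 47.5 and 61.9 CPM, did overlap, with −0.38 ± 0.28. miR-15b, the other member with an unadjusted p under 0.05 in limma, was close to the filter, at 1.32 and 1.17 CPM against 2.75, 2.31 and 2.79 CPM. miR-457 (abu-miR-457), a related fish miRNA, was at 2.93 and 6.11 CPM against 7.46, 8.28 and 7.55 CPM, with −0.73 ± 0.31, and was added to the text after its values were seen.

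Of the families with a mean of at least 10 CPM, miR-22a and the predicted novel_55 were also among the 10 lower ones of smallest p. miR-22a (dre-miR-22a-3p), an abundant liver miRNA, was at 24696 and 24149.5 CPM against 29108, 30429.9 and 28310.4 CPM, with both rapid libraries below the normoxia range. Its change was −0.26 ± 0.17 (adjusted p = 0.976). miR-100 (ola-miR-100), one of the 10 most abundant, whose genes sit beside let-7 genes, was at 17073 and 18261 CPM against 22741, 21333 and 19244 CPM, also without overlap, with −0.25 ± 0.24. novel_55 was at 26.6 and 9.88 CPM against 25.3, 34.8 and 20.2 CPM, with −0.65 ± 0.46, and its groups overlap because rapid library 1 lay within the normoxia range.

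On the higher side, miR-34a led by p among families with a mean of at least 10 CPM. miR-34a is a target of p53 in mammals and is known for repressing cell cycle and metabolic genes. xla-miR-34a-5p was at 18.7 and 19.7 CPM in the rapid libraries and 5.13, 9.47 and 11.4 CPM in the normoxia libraries, so that the groups do not overlap. The means were 19.2 ± 0.706 CPM (SD, n = 2) and 8.68 ± 3.23 CPM (SD, n = 3), 2.21-fold apart, with a change of 1.12 ± 0.45 log2 units (adjusted p = 0.709; 0.474 to 0.997 over the alternatives). aca-miR-34b-5p, the other tested member of the list, is a near copy. Normoxia 12 h had the lowest mean of the 8 groups for miR-34a and gradual 3 h the highest, at 40.6 ± 6.42 CPM (SD, n = 3). Rapid 12 h lay close to normoxia 0 h at 19.3 ± 5.32 CPM (SD, n = 2). The normoxia 12 h libraries overlap those of hypoxia 0 h, hypoxia 12 h, rapid 3 h and gradual 12 h. In gradual 12 h miR-34a was at 19.8, 20.5 and 7.79 CPM. Set directly against gradual 12 h, rapid 12 h differed by 0.36 ± 0.45, smaller than its SE.

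miR-153b (dre-miR-153b-3p), best known from nervous tissue, had the highest change of all 535 entries, and one library carried it. It was at 107 and 680.4 CPM in the rapid libraries and 73.5, 72.9 and 12.9 CPM in the normoxia libraries. The change was 2.67 ± 1.18 (adjusted p = 0.937). Without rapid library 2 it was 1.34, and without normoxia library 3 it was 1.87. The 3 tested members of the neural list gave 1 higher and 2 lower, and 2 higher and 1 lower with edgeR or DESeq2. Of these, miR-138 (mmu-miR-138-5p) was at 6.38 and 5.77 CPM against 3.69, 2.55 and 4.01 CPM, with 0.69 ± 0.27 and no overlap.

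miR-221 and miR-222, made from one transcript and known in mammals for acting on KIT and the cell cycle inhibitor p27 in vessel and blood cells, were higher in both rapid libraries than in any normoxia library. miR-221 (bta-miR-221) was at 363 and 377 CPM against 309, 216 and 297 CPM, with 0.45 ± 0.27. miR-222a (gga-miR-222a) was at 282 and 275 CPM against 265, 126 and 179 CPM, with 0.62 ± 0.35, and miR-222 (ola-miR-222) gave 0.59 ± 0.33. The rapid libraries were close to each other here, and normoxia library 1 was the nearest below them. Of the 4 tested members of the list, 3 were higher without overlap, where 8.6% of all entries were, 1 was lower (miR-222b), and 0 passed. The median was 0.52.

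**Figure D3:**
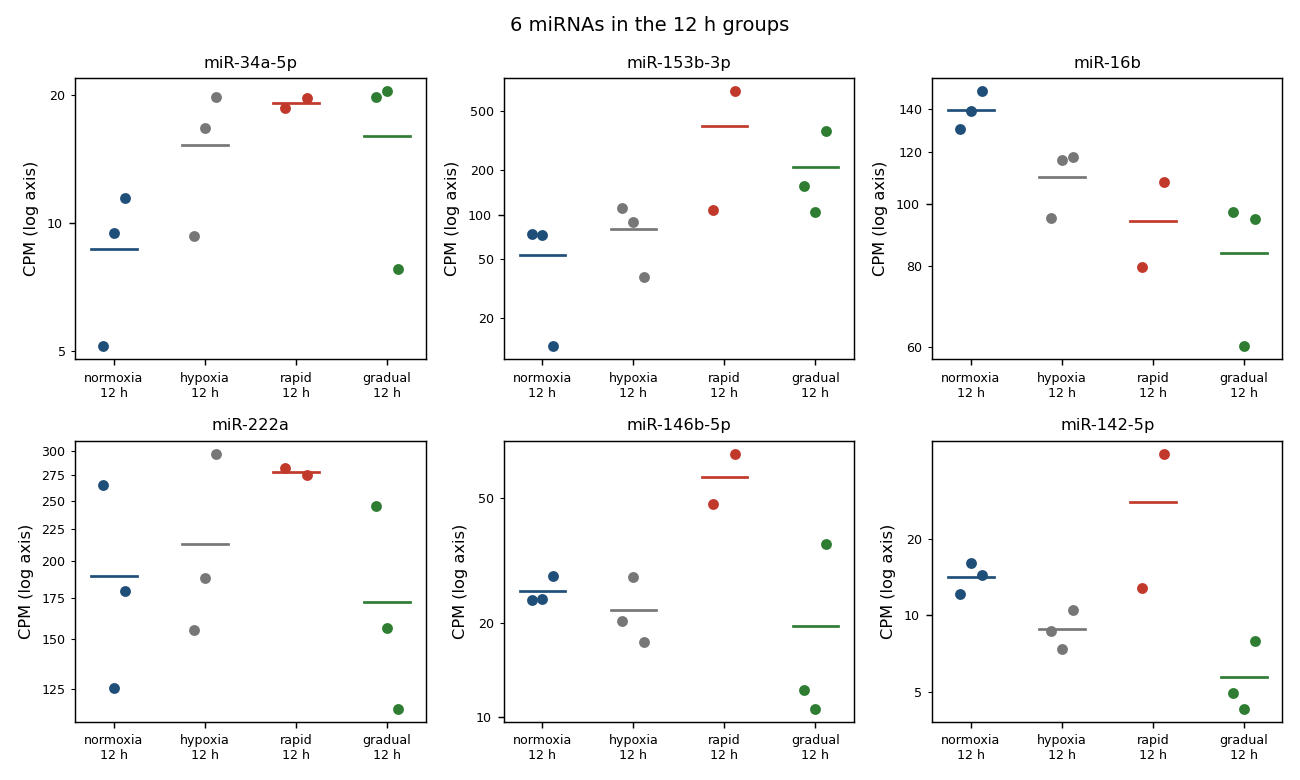
CPM on a log axis of miR-34a-5p, miR-153b-3p, miR-16b, miR-222a, miR-146b-5p and miR-142-5p (gga-miR-142-5p) in the 4 groups at 12 h, with one point per library and bars at the group means. For miR-16b both rapid libraries lie below the 3 normoxia libraries and for miR-34a both lie above, while for miR-153b the rapid libraries lie at 107 and 680.4 CPM.

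miR-146a and miR-146b, which dampen Toll-like receptor signalling in mammals through IRAK1 and TRAF6, differed in how their libraries fell. miR-146b (cli-miR-146b-5p) was at 47.6 and 68.9 CPM against 23.7, 23.8 and 28.1 CPM, without overlap, with 1.16 ± 0.66 (adjusted p = 0.976). miR-146a (dre-miR-146a), far more abundant, was at 13786 and 44169 CPM against 17837, 9892 and 13181 CPM, with 0.897 ± 0.54. Here rapid library 1 lay inside the normoxia range and only library 2 above it. The other tested families of the inflammation list overlapped, and of its 9 members 5 were higher, 4 lower and 0 passed, a split that became 4 higher and 5 lower with quantile normalization or DESeq2.

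miR-24b, miR-10b and miR-10d complete the higher side. miR-24b (dre-miR-24b-3p) was at 37.8 and 59.3 CPM against 29.9, 15.9 and 38.4 CPM, with 0.82 ± 0.39. miR-10b (mmu-miR-10b-5p), a Hox cluster miRNA, was at 78.1 and 138 CPM against 85.4, 69.9 and 35.2 CPM, with 0.79 ± 0.46, and miR-10d followed it closely at 0.79 ± 0.47. In all 3 the groups overlap. Over the list that joins miR-10 with miR-100, miR-99 and miR-125, 9 of 11 tested members were higher and 2 lower, with a median of 0.17 and none past the threshold. By the authors' deposited means, which include the further library, miR-10a, miR-10b, miR-10d, miR-125a and miR-125c lay above normoxia 12 h. The others of the list lay below it.

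Among the miRNAs often linked to low oxygen, 15 of 18 listed were tested, 12 were higher and 3 lower, and 0 passed, with a median of 0.14. With quantile normalization the split was 9 higher and 6 lower. In the authors' deposited means, which include the further library, only miR-23a and miR-27a of the tested members lay above normoxia 12 h. Their log2 ratios were 0.18 and 0.74, where the median over all entries was −0.29. The 5p form of miR-210 (dre-miR-210-5p), whose gene is switched on by hypoxia-inducible factor in mammals, was at 17.6 and 8.95 CPM against 21.7, 16.2 and 17.3 CPM, with −0.502 ± 0.38. miR-462 and miR-731, which form one cluster in bony fishes and are known there for responses to low oxygen and to viruses, were at 160.2 and 358 CPM against 156, 234 and 218 CPM and at 43.3 and 46.2 CPM against 34.5, 52.4 and 36.8 CPM. All these overlap the normoxia range. Their changes were 0.26 ± 0.45 and 0.14 ± 0.43, with 95% intervals of −0.68 to 1.197 and −0.77 to 1.05. Changes inside these intervals are not excluded by these libraries.

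miR-21 (dre-miR-21), raised in many injured tissues, was at 7704 and 10509 CPM against 9411, 6584 and 7459 CPM, with 0.22 ± 0.27. miR-27a (bta-miR-27a-3p), the one of 15 tested members of the hypoxia list with an unadjusted p under 0.05, where 4.86% of all entries had one, was at 7.91 and 5.72 CPM against 2.13, 2.595 and 3.48 CPM, with 1.07 ± 0.47 and no overlap.

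The miRNAs of hepatocytes were led by miR-122, which supports lipid metabolism and hepatocyte identity. miR-122 (oha-miR-122-5p) was at 109912 and 71474 CPM against 89169, 95328 and 93215 CPM, with rapid library 1 above and library 2 below all normoxia libraries. Its change was −0.062 ± 0.21 (95% interval −0.51 to 0.39), and rno-miR-122b gave −0.0901 ± 0.23. By the authors' deposited means, which include the further library, their log2 ratios were 0.26 and 0.28, where the median over all entries was −0.29. The other tested members of the hepatocyte list lay below normoxia 12 h by those means. miR-192 (ola-miR-192-5p), shared by liver and gut epithelium, was at 16430.5 and 12701 CPM against 14340.2, 16456 and 17887 CPM, with −0.16 ± 0.3996. Of 10 tested hepatocyte members 2 were higher and 8 lower, with a median of −0.15 and none past the threshold, and the 5 of the gut and liver epithelium list were all lower, with a median of −0.12 (4 of 5 with edgeR).

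Other abundant miRNAs also overlapped. miR-143 (efu-miR-143), of smooth muscle in vessel walls, was at 12804 and 28054 CPM against 14376, 13551 and 18032 CPM, with 0.32 ± 0.34. miR-26 (aca-miR-26-5p) was at 12381 and 14640.2 CPM against 14548, 13151 and 11617 CPM, with 0.045 ± 0.17, and efu-miR-26c is a near copy. Of the miRNAs listed for lipid and glucose metabolism, 4 of 10 tested members were higher and 6 lower (5 and 5 with TMM factors, edgeR or DESeq2), and both members with an unadjusted p under 0.05, miR-34a and miR-27a, were higher, as were 2.24% of all entries at that p.

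**Figure D4:**
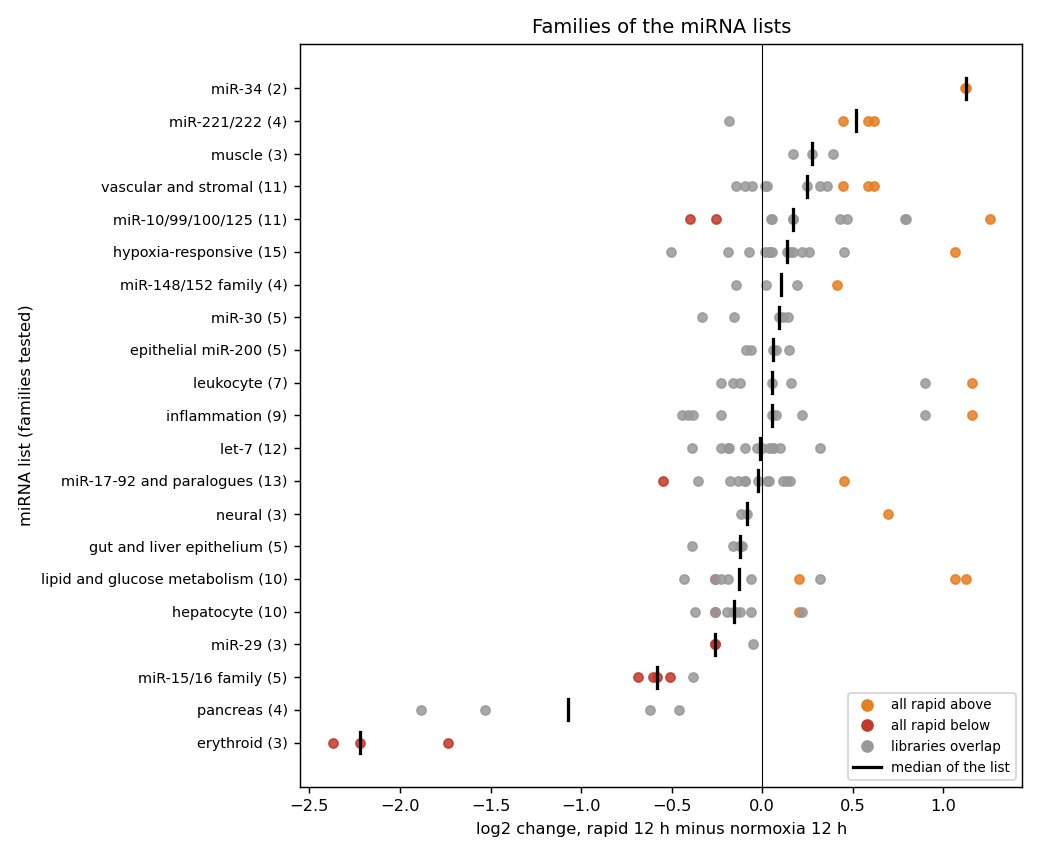
Change in log2(CPM + 1), rapid 12 h minus normoxia 12 h, of the tested families of 21 miRNA lists, one point per family by its most abundant entry, with a black bar at the median of each list. The erythroid list stands at −2.22 and the miR-15/16 family at −0.58, no point passed the adjusted threshold, and families in more than 1 list are drawn in each.

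Apart from the pancreas list, given below, the remaining lists had medians within 0.3 log2 units of 0 and no member past the threshold. let-7, which is known for restraining growth genes, had 5 of 12 higher and 7 lower (median −0.015), and the miR-17-92 group, known for promoting proliferation, 6 of 13 higher and 7 lower (median −0.023). For both, the split turned the other way with TMM factors or edgeR, and for let-7 also with quantile normalization. The medians were 0.095 for the 5 miR-30 members, 0.059 for the 5 of miR-200 (−0.06 with DESeq2), 0.11 for the 4 of the miR-148 and miR-152 group and −0.26 for the 3 of miR-29. In the vascular and stromal list 8 of 11 were higher, with a median of 0.25, and the 3 without overlap were miR-221, miR-222 and miR-222a, where 8.6% of all entries lay above in this way. By the authors' deposited means, which include the further library, only miR-143 and these 3 of the list lay above normoxia 12 h.

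The 2 rapid libraries stood furthest apart in miR-217 and miR-216b, miRNAs of pancreatic acinar cells made from one cluster. miR-217 (hsa-miR-217-5p) was at 7.78 and 1562 CPM in the rapid libraries and 379, 165 and 1286 CPM in the normoxia libraries, with −1.89 ± 1.696. miR-216b (dre-miR-216b) was at 24.8 and 1862 CPM against 522, 302 and 1603 CPM, with −1.53 ± 1.33. Rapid library 1 was thus below all normoxia libraries and library 2 above them. All 4 tested members of the pancreas list were lower (median −1.07), but without rapid library 1 the change of miR-217 was 1.85 and that of miR-216b 1.56, and edgeR also gave both as higher, at 0.31 and 0.17, as DESeq2 did for miR-217, at 0.104.

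The summed level of the pancreas list was 72.0 and 3499 CPM in the rapid libraries, and 571 to 2951 CPM in normoxia 12 h. miR-217 was under 10 CPM in 2 of the 22 libraries, rapid 12 h library 1 and a gradual 3 h library, and at least 165 CPM in the rest. miR-8159 (ssa-miR-8159-5p), named after its values were seen, was at 189 and 4751 CPM against 849, 616 and 3462 CPM. The part of acinar tissue in other changes was not tested. Of the muscle list, miR-1, miR-133 and miR-206 summed to 7.10 and 24.2 CPM in the rapid libraries and 9.39 to 11.4 CPM in normoxia 12 h.

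**Figure D5:**
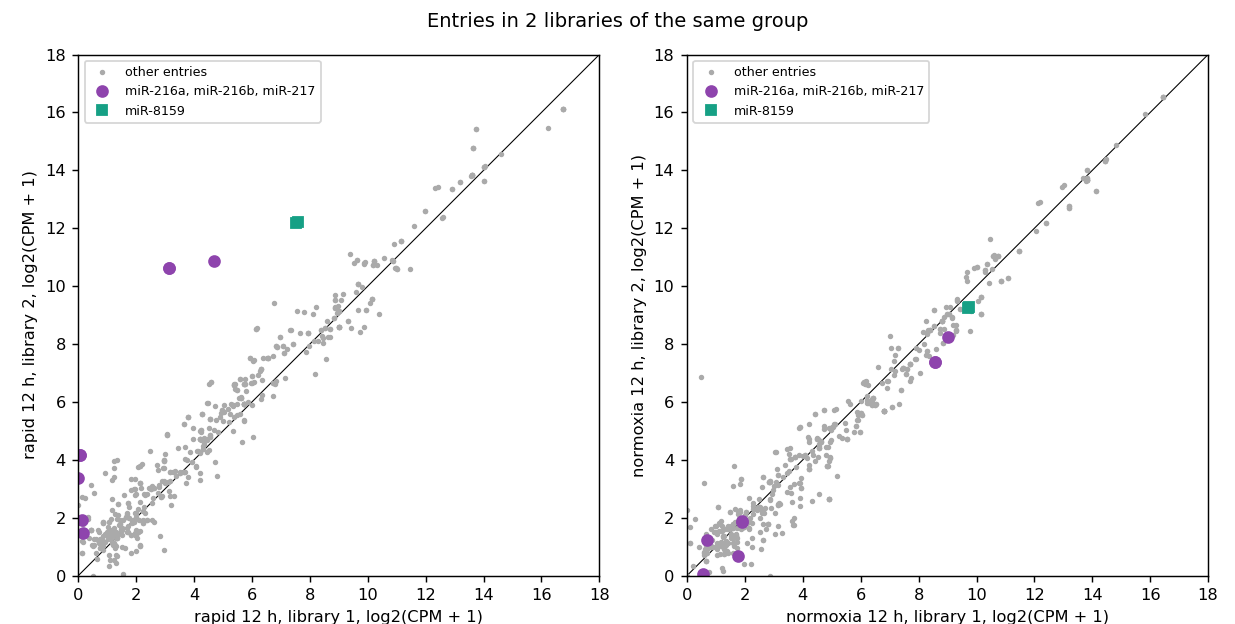
log2(CPM + 1) of the 535 entries in rapid 12 h libraries 1 and 2 (left) and in normoxia 12 h libraries 1 and 2 (right), one point per entry, with the line of equal values. Points of miR-216a, miR-216b and miR-217 (purple) and miR-8159 (green) lie far above the line in the rapid pair, where miR-217 is at 7.78 and 1562 CPM, and nearer to it in the normoxia pair, where miR-217 is at 379 and 165 CPM; normoxia library 3, at 1286 CPM, is not drawn.

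Rapid and gradual reoxygenation at 12 h, 2 and 3 libraries, were compared directly in the same fit. No entry passed in limma or edgeR (0%), 37 entries (6.92%) had an unadjusted p under 0.05, 33 of them (6.17%) higher after rapid reoxygenation, and DESeq2 called 4 (0.748%). The groups did not overlap for 21.3% of entries. miR-142, a miRNA of white blood cells, was higher in both rapid libraries than in any gradual library.

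gga-miR-142-5p, a less abundant entry named after its values were seen, was at 12.8 and 43.04 CPM in the rapid libraries. In the gradual libraries it was at 4.92, 4.27 and 7.93 CPM, with a change of 1.92 ± 0.51 (limma adjusted p = 0.158). The change ranged from 1.08 to 2.75 over the alternatives, and it passed with DESeq2 and without the normoxia 0 h group. The more abundant pbv-miR-142-5p, which stands for the family, was at 21.1 and 60.99 CPM against 7.32, 11.01 and 19.1 CPM. Its change was 1.55 ± 0.496 (limma adjusted p = 0.356), and it did not pass in any alternative. Against normoxia 12 h, at 31.5, 34.1 and 30.7 CPM, the same entry overlapped, with 0.16 ± 0.496. Of the 7 tested members of the leukocyte list 4 were higher and 3 lower than in normoxia 12 h (3 and 4 with quantile normalization or DESeq2), and the summed level of the list was 15884 and 45951 CPM in the rapid libraries, 12080 to 19696 CPM in normoxia 12 h and 16976 to 53297 CPM in gradual 12 h. miR-146a makes up most of that sum, and against gradual 12 h it gave −0.076 ± 0.54. The median of the list against gradual 12 h was 0.13, beside 0.082 over all entries, and 0 members passed.

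miR-146b was 1.71 ± 0.66 above gradual 12 h, where it stood at 12.2, 10.6 and 35.7 CPM (adjusted p = 0.489). miR-221 differed by 0.64 ± 0.27, miR-222 by 0.79 ± 0.33 and miR-222a by 0.76 ± 0.35, with gradual libraries of miR-222a at 245, 156 and 116 CPM. Both rapid libraries of these 4 lay above the normoxia range at 12 h, where 8.6% of all entries did, and above the gradual range. miR-146b, miR-222 and miR-222a were named for their small p against normoxia 12 h, so that share is no test of them. The share of all entries above both ranges was not counted. miR-222 and miR-222a had similar levels and can share reads, so the 4 are not independent. miR-460a (gga-miR-460a-5p), a miRNA of fishes and birds, was named after its values were seen. It was at 64.4 and 26.5 CPM against 18.2, 26.3 and 17.6 CPM, so that rapid library 2 was close to the highest gradual library. Its change was 0.99 ± 0.36, from 0.36 to 1.61 over the alternatives, and it did not pass in the main fit. In normoxia 12 h it was at 48.6, 59.5 and 41.3 CPM.

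Among the 23 predicted entries 10 were higher and 13 lower than in normoxia 12 h, with a median of −0.059. novel_431 was at 1.28 and 1.61 CPM in the rapid libraries and at 0, 0 and 0.09396 CPM in the normoxia libraries, a change of 1.24 ± 0.26, and at 0, 0.0375 and 0 CPM in gradual 12 h. It entered the test only through the rapid libraries, where it is high, so that its difference is given as a description. It is the 1 entry that DESeq2 called as higher. Its mean was 0.432 CPM in normoxia 0 h, with libraries from 0.0566 to 0.808 CPM. In the other groups it was 0.456 CPM in hypoxia 0 h, 0.0682 CPM in hypoxia 12 h, 0.109 CPM in rapid 3 h and 1.38 CPM in gradual 3 h. novel_333 was at 4.72 and 6.99 CPM against 1.35, 0.124 and 2.66 CPM, with 1.67 ± 0.65 and no overlap. novel_167 was at 0.425 and 0 CPM against 3.77, 1.44 and 0.7204 CPM, with −1.19 ± 0.38 and no overlap, and entered the test only through the normoxia libraries. These are the 3 of 23 predicted entries with an unadjusted p under 0.05, where 4.86% of all entries had one, and were picked after their values were seen. Since novel_431 and novel_167 entered only through the group where they are high, the count says nothing about predicted entries as a set.

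The authors' deposited table gives group means that, for rapid reoxygenation 12 h, include the further library. In the authors' deposited table the mean of ola-miR-144 was 50.1 CPM, a log2 ratio of −2.19 to the deposited normoxia 12 h mean. The authors' deposited table gives chi-miR-451-5p a mean of 1839 CPM and a ratio of −2.62, and dre-miR-2188-5p a mean of 63.2 CPM and a ratio of −2.79. The same ratios from the library means used here were −1.75, −2.26 and −2.399. The median ratio over all entries was −0.29 in the authors' deposited table and 0.019 in the library means. On the higher side the ratios in the authors' deposited table were smaller, at 0.088 against 0.43 for miR-221 and 0.24 against 0.53 for miR-222. They were 0.26 against 0.55 for miR-222a, 0.81 against 1.06 for miR-34a and 0.84 against 1.18 for miR-146b. Statements above that groups do not overlap cover the 2 rapid libraries analysed here and not the further library. Over all 535 entries, 353 had the same sign in the authors' deposited table as in the library means and 182 the other.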

How the data were processed

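Per the labels' protocols, RNA was taken from liver and single-end small RNA reads were made. Per the submitters' processing notes, Bowtie was used, without a version, and neither the reference nor the read counter is given in the sources used here. The deposited values are CPM made by the authors. The table's name says TPM, but each library column sums to the same total and 100% of values were whole multiples of 1 read within 0.01, so whole reads were recovered. Near-identical entries can share reads. Rows identical in all library columns were counted once (708 repeats removed of 2108). 3 reads were taken as the floor, and intervals cover library spread only.

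log2(CPM + 1) was modelled with limma 3.58.1 in R 4.3.3, with a trend of variance on level, over all 22 libraries in 8 groups, with contrasts for rapid 12 h against normoxia 12 h and against gradual 12 h, and Benjamini-Hochberg adjustment over 535 entries. The method was tested on simulated data. Alternatives were pseudocounts of 0.1 and 10, other filters, identical rows kept, TMM factors, quantile normalization, edgeR 4.0.16, DESeq2 1.42.0, fewer groups, a replicate block, and leaving out each library. Named in the text are the 10 families of smallest p in each direction with a mean of at least 10 CPM, the 10 most abundant, list members and a fixed set of miRNAs. Members, lists and tests were chosen with earlier results of these data known. Figures were drawn with matplotlib 3.10.9. No sequences were used here.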

Additional observations from a re-analysis of the deposited data

How the results depend on the processing

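With 2 rapid libraries, 402 of 535 changes were smaller than their SE. The count of entries called against normoxia 12 h, 0 as reported, was 1 with pseudocount 10, 4 with no filter, 1 with quantile normalization, 8 with DESeq2 and 3 without the normoxia 0 h group, and 0 to 8 in the fits that left out 1 library, where leaving out normoxia library 3 gave the 8. Against gradual 12 h it was 4 with no filter, 1 with quantile normalization, 4 with DESeq2 and 4 without the normoxia 0 h group, and 0 to 10 with 1 library left out, 3 without rapid library 1 and 10 without rapid library 2. Where a group was left with 1 library, that library was assumed to vary like the other groups. The cause of these differences was not tested. The other settings gave 0 calls in both comparisons. edgeR moved the median of all entries by 0.101 log2 units, to 0.077, leaving out rapid library 1 by 0.25, to 0.23, and leaving out rapid library 2 by −0.16, to −0.19.

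Directions turned for miR-217 with edgeR (0.31) and DESeq2 (0.104) and for miR-216b with edgeR (0.17). With 1 library left out, the change against normoxia 12 h ranged from −5.62 to 1.85 for miR-217, −4.62 to 1.56 for miR-216b, −1.32 to 0.023 for novel_55, −0.84 to 0.101 for miR-22b, −0.79 to 0.016 for let-7g, −0.033 to 0.97 for miR-125a and −0.13 to 1.55 for gga-miR-142-5p. Against gradual 12 h it ranged from −7.03 to 0.45 for miR-217 and −5.89 to 0.29 for miR-216b. Of 136 entries examined against normoxia 12 h, 7 turned direction in some setting, counting only those whose change exceeded its SE. Entries with a smaller change were not counted, though some of them also changed sign, such as miR-122 (−0.37 to 0.25) and miR-462 (−0.32 to 0.84).

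Libraries of different groups carry the same numbers, but nothing says that a number marks a shared fish or batch. With the number as a replicate block, 0 entries were called against normoxia 12 h, 21 had an unadjusted p under 0.05 and the smallest adjusted p was 0.182. Deviations of same-numbered rapid and normoxia libraries correlated at −0.047 and −0.22. With 2 rapid libraries the deviations of one mirror those of the other, so these values cannot show or exclude pairing. The numbers were not taken as pairs because the labels do not say that they are.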
